A study of Mus musculus with 8 samples.

Results

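The Schlafen genes studied here are Slfn1, Slfn2, Slfn4 and Slfn5, which were taken by symbol from a table of estimated counts and make up 4 of its 18187 gene symbols. Another 5 symbols of the table carry the Schlafen name, and they are given where they help to place these 4. The libraries are bulk RNA sequencing of mouse neutrophils from B16 tumors, B16 being a mouse melanoma line, and all 8 libraries share that tumor. In 3 libraries (replicates 1 to 3) the treatment was aOX40, and in 5 libraries (replicates 2 to 6) it was IgG. OX40 is a receptor through which T cells that have met antigen receive a costimulatory signal, and the series title asks about neutrophils after immunotherapy aimed at T cells. The labels used here name no mouse strain, age, dose or time point. They also leave unsaid whether the replicates are different mice, so a p-value here reflects variation among libraries that could be partly technical.

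Schlafen genes take their name from the German word for sleeping, because the first of them were found in mouse thymocytes, where forced expression of Slfn1 slowed growth. The proteins share a core region with a divergent ATPase fold. Slfn1 and Slfn2 encode the short form, which is little more than that core, Slfn4 encodes an intermediate form, and Slfn5, Slfn8 and Slfn9 encode the long form, which adds a helicase-like part. Many members are induced by type I interferon, which acts through a receptor, the kinases Jak1 and Tyk2 and factors that include Stat2 and Irf9 on a promoter element called the interferon-stimulated response element. In mice, Slfn2 is needed for the quiescence and survival of resting T cells and monocytes, and Slfn4 is known from macrophages and other myeloid cells.

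The 8 Schlafen genes of the table other than Slfn5os lie in 1 cluster of 263.8 kb on chromosome 11 (GRCm38, the assembly also called mm10, GENCODE M21), and Slfn5os, antisense to Slfn5, overlaps its Slfn5 end and reaches beyond it. Slfn5 (ENSMUSG00000054404.13) occupies chr11:82951349-82964840, Slfn2 (ENSMUSG00000072620.3) chr11:83065112-83070678, Slfn1 (ENSMUSG00000078763.2) chr11:83116849-83122670 and Slfn4 (ENSMUSG00000000204.16) chr11:83175186-83190216, and each of these 4 is protein-coding and on the plus strand. Slfn9, Slfn8 and the pseudogene Slfn10-ps lie on the minus strand between Slfn5 and Slfn2, and Slfn3 follows Slfn4. The exons of Slfn2 cover 1.66 kb, those of Slfn1 1.86 kb, those of Slfn4 3.96 kb and those of Slfn5 6.33 kb.

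The sequence before the start of each gene is shown as a description. Whether the elements in it bear on the levels was not tested. The lines give the 250 bases before the RefSeq start (GRCm38.p6), 5′ to 3′ on the strand of the gene, and Slfn8 is added as a long-form relative. Capitals mark matches on either strand to GAAANNGAAA, the core of the interferon-stimulated response element, and to ACTTCCTGG, a run of letters whose other strand holds the GGAA core that ETS factors bind.
Slfn5 (chr11:82951852-82952101, plus strand): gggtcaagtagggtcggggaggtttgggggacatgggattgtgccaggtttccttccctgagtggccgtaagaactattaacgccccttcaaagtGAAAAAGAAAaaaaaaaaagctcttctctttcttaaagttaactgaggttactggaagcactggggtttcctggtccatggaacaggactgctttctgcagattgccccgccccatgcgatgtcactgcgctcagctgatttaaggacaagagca
Slfn8 (chr11:83020811-83021060, minus strand): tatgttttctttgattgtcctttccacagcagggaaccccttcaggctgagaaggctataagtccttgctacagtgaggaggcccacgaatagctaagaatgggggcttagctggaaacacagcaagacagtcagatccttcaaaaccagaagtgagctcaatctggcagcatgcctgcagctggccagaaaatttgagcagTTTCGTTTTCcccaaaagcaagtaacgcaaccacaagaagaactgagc
Slfn2 (chr11:83064862-83065111, plus strand): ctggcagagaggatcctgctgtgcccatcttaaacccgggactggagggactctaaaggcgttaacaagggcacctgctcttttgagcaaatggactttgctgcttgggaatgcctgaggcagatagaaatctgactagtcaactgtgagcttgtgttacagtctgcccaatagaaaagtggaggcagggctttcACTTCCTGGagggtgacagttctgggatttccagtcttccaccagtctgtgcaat
Slfn1 (chr11:83116570-83116819, plus strand): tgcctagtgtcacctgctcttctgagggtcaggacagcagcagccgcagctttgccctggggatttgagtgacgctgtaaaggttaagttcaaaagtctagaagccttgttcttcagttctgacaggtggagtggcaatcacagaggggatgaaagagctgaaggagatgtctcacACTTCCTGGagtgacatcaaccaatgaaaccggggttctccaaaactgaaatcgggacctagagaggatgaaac
Slfn4 (chr11:83174936-83175185, plus strand): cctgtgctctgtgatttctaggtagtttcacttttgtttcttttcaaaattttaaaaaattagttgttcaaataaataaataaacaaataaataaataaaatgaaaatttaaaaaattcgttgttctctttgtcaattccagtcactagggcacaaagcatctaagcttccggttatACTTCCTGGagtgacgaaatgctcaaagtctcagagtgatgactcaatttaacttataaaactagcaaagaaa

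GAAANNGAAA was found before Slfn5, at -155 to -146 from the start, and before Slfn8 and Slfn9, at -48 to -39 (in the Slfn8 window shown) and -45 to -36, where it reads TTTCGTTTTC on the gene's strand. It was not among the letters of the windows of Slfn1, Slfn2, Slfn3 and Slfn4. Only exact matches were searched, so looser forms of the element were not looked for. Of 32851 promoter windows of this length in the RefSeq table, 2.98% held it. Among the type I interferon-induced genes listed for this work 12 of 38 windows did. Counted by gene, this was 12 of the 31 listed genes with a window. The other run, ACTTCCTGG, was noticed by reading the members' sequences and then searched, so its presence there is a description only. It stood before Slfn1 at -74 to -66, before Slfn2 at -55 to -47, before Slfn4 at -73 to -65 and before Slfn3 at -42 to -34, and 0.700% of all windows held it. No window held both, so the matches do not overlap. The core of the gamma-activated sequence, TTCNNNGAA, which is the same on both strands and was held by 7.02% of windows, was in none of the Schlafen windows. A match shows only that the letters are present, and factor binding was not measured. Part of the Slfn5 window lies in an exon of a non-coding Slfn5 transcript.

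The libraries held 69.6 to 73.5 M counts in aOX40 and 52.7 to 63.2 M in IgG (exact two-sided permutation p = 0.0357, which is the lowest value possible with these group sizes), so depth and treatment cannot be told apart. All 18 listed neutrophil markers had counts and summed to 36977 to 42807 CPM in aOX40 and 32499 to 48106 CPM in IgG (CPM, the counts of each library scaled to a common total with TMM factors). Single markers within that sum went both ways. Mmp8 averaged 1093 CPM in aOX40 and 479 CPM in IgG, and G0s2 averaged 3413 CPM in aOX40 and 6245 CPM in IgG. IgG replicate 4 stood highest of the 8 libraries for 5 of the 8 tested Schlafen genes, namely Slfn2, Slfn4, Slfn5, Slfn8 and Slfn9. It was also highest for the mean of the type I interferon-induced list. The log2 fold changes of these 5 genes and the list's median are given with and without it. Group mean levels and nearest patterns are given with all 8 libraries only.

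Slfn4 and Slfn5 were lower in aOX40 neutrophils than in IgG neutrophils, by 2.42-fold and 4.97-fold on the fitted scale. Slfn2, the member with the highest level per length, was at nearly the same level in both groups, and Slfn1 lay between, with overlapping groups. Of the 4 members, 2 fell and 0 rose at an adjusted p below 0.05 in edgeR's quasi-likelihood test with Benjamini-Hochberg adjustment over all 13278 genes tested. Of all genes tested, 3.00% were called lower and 2.64% higher, 5.65% in all, and the median log2 fold change was 0.05.

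Slfn4 had 1373, 1212 and 1407 CPM in aOX40 replicates 1, 2 and 3, against 3164, 2683, 3917, 2934 and 3393 CPM in IgG replicates 2 to 6. Every aOX40 library was below every IgG library, and the highest aOX40 library reached 0.524 of the lowest IgG library. Of all genes tested, 7.75% were lower and 8.22% higher in aOX40 without overlap between the groups. Mean levels of 1331 ± 104 CPM in aOX40 and 3218 ± 471 CPM in IgG (SD over 3 and 5 libraries) gave a log2 fold change of -1.27 (SE 0.19, 95% interval -1.69 to -0.86, adjusted p = 0.00996, edgeR). The coefficient of variation was 7.83% within aOX40 and 14.6% within IgG. Without IgG replicate 4 the value was -1.19 (adjusted p = 0.0209). The call did not hold without aOX40 replicate 2, where edgeR called 0 genes of the whole table at the threshold and 2230 at an unadjusted p below 0.05 (adjusted p = 0.0634, log2 fold change -1.21). In bulk libraries a lower share of cells that express a gene and less of its RNA per cell cannot be told apart.

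Slfn5, the long-form member, had 22.9, 14.98 and 16.3 CPM in aOX40 replicates 1, 2 and 3, against 67.4, 62.9, 179, 60.3 and 78.2 CPM in IgG replicates 2 to 6. The groups did not overlap, and IgG replicate 4 stood far above every other library. Mean levels of 18.1 ± 4.27 CPM in aOX40 and 89.6 ± 50.5 CPM in IgG (SD over 3 and 5 libraries) gave a log2 fold change of -2.31 (SE 0.42, 95% interval -3.23 to -1.40, adjusted p = 0.0167, edgeR). Without IgG replicate 4 the log2 fold change was -1.90, with a smaller SE of 0.25 (adjusted p = 0.0167), so the call held without the highest library. It did not hold without aOX40 replicate 2 (-2.19, adjusted p = 0.115) or aOX40 replicate 3 (-2.24, adjusted p = 0.0778). Slfn5 shares 559 exon bases with Slfn5os on the other strand, and no source used here says whether reads were counted by strand; Slfn5os had at most 7.95 counts in any library.

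**Figure D1:**
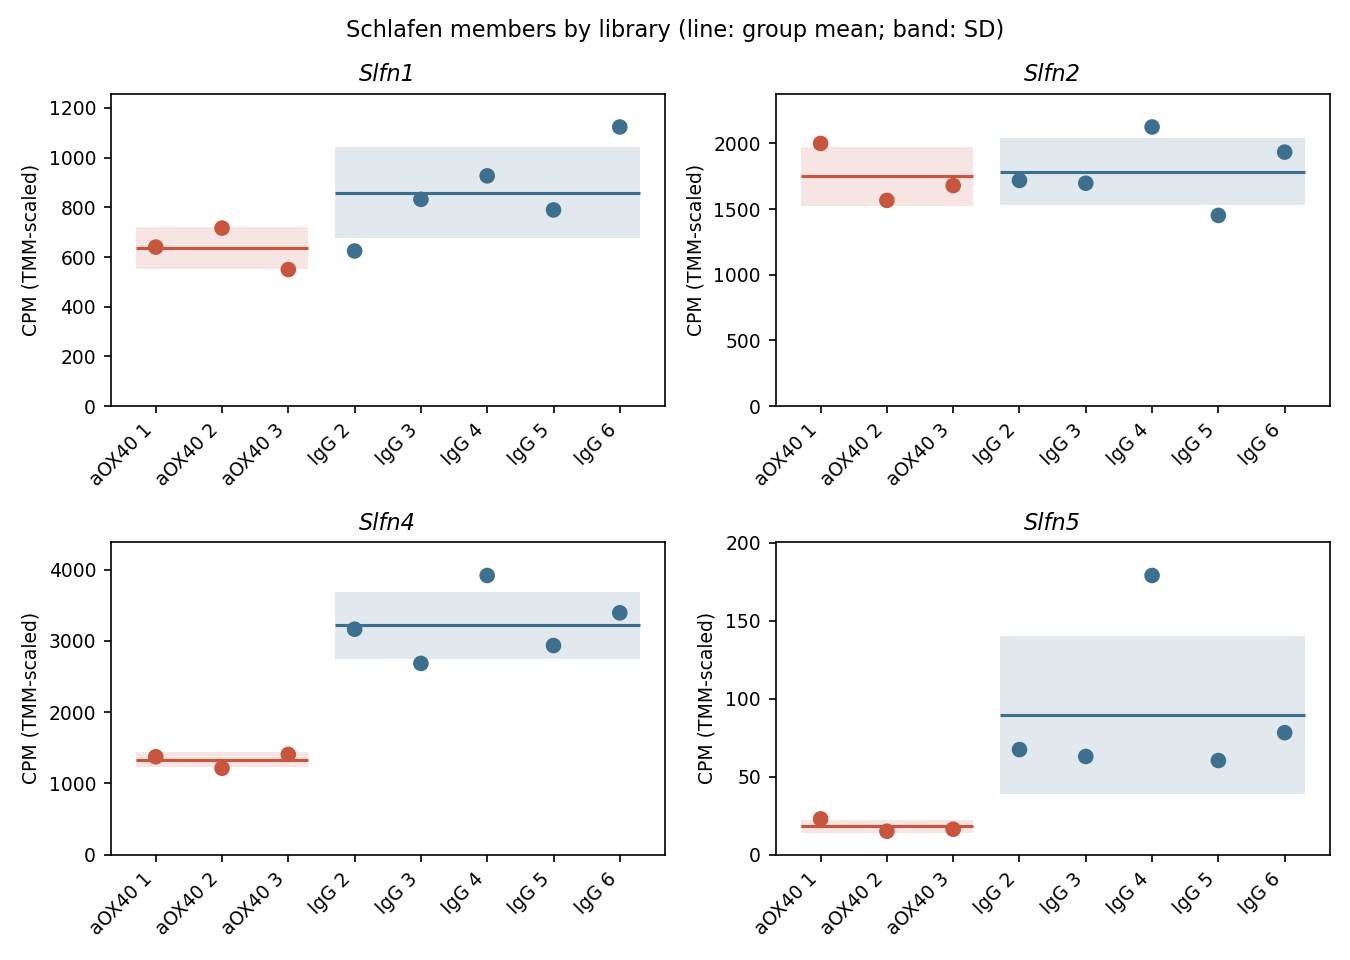
Level in CPM (TMM-scaled, axes from 0) of the 4 members in each library, aOX40 in red and IgG in blue, with the group mean as a line and the SD as a band. The 3 aOX40 libraries lie below all 5 IgG libraries for Slfn4 and Slfn5, while the groups overlap for Slfn1 and Slfn2, and IgG replicate 4 stands out for Slfn5 at 179 CPM.

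Slfn2, the quiescence member, had 2000, 1566 and 1679 CPM in aOX40 replicates 1, 2 and 3, against 1718, 1697, 2125, 1452 and 1934 CPM in IgG replicates 2 to 6. The aOX40 libraries lay inside the range of the IgG libraries. The means were 1748 ± 225 CPM in aOX40 and 1785 ± 255 CPM in IgG (SD, n = 3 and 5), and the log2 fold change was -0.03 (SE 0.19, 95% interval -0.44 to 0.38, adjusted p = 0.940, edgeR). The interval does not reach the value of Slfn4 or of Slfn5. Scaled by total counts alone its log2 fold change was 0.27, where the median of all genes stood at 0.35, so relative to that median it was -0.08 under both scalings.

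Slfn1 had 640, 716 and 550 CPM in aOX40 replicates 1, 2 and 3, against 624, 832, 926, 790 and 1123 CPM in IgG replicates 2 to 6. Only IgG replicate 2 fell among the aOX40 libraries, and the other IgG libraries were higher than all of them. The means were 635 ± 83.5 CPM in aOX40 and 859 ± 184 CPM in IgG (SD, n = 3 and 5), and the log2 fold change of -0.44 did not pass (SE 0.22, 95% interval -0.91 to 0.04, adjusted p = 0.242, edgeR). Without IgG replicate 2 it was -0.53 and still did not pass (adjusted p = 0.145).

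The make-up of the family differed between the groups when levels were compared per kilobase of exon. In aOX40, Slfn2 stood at 1051 ± 135 CPM per kilobase, Slfn1 at 341 ± 44.8, Slfn4 at 336 ± 26.3 and Slfn5 at 2.86 ± 0.67 CPM per kilobase (SD, n = 3), and the ranges of Slfn1 and Slfn4 overlapped, so their order was not resolved. In IgG, Slfn2 stood at 1073 ± 153 CPM per kilobase, Slfn4 at 812 ± 119, Slfn1 at 461 ± 98.5 and Slfn5 at 14.2 ± 7.98 CPM per kilobase (SD, n = 5), and Slfn4 was above Slfn1 in every IgG library. The level of Slfn4 per kilobase relative to that of Slfn2 in the same library, a ratio that no scaling between libraries can move, was 0.288, 0.325 and 0.352 in the aOX40 libraries, against 0.664 to 0.848 in the IgG libraries. The same ratio for Slfn5 was 0.00252 to 0.00302 in aOX40 and 0.00976 to 0.0222 in IgG (at most 0.0109 without IgG replicate 4), again without overlap, while that for Slfn1 was 0.286 to 0.408 in aOX40 and 0.324 to 0.518 in IgG, with overlap. Slfn4 made up 18.3% to 21.4% of the summed per-kilobase level of the 4 members in aOX40 and 31.4% to 36.7% in IgG, and Slfn2 57.6% to 63.4% in aOX40 and 42.7% to 47.4% in IgG.

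The 4 members together took 0.425 ± 0.024% of all counts in aOX40 (SD, n = 3) and 0.548 ± 0.053% in IgG (SD, n = 5). Ranked by level per kilobase among 12937 tested genes with a known length, Slfn2 was at rank 52 in aOX40 and 75 in IgG, Slfn1 at 158 in aOX40 and 150 in IgG, Slfn4 at 160 in aOX40 and 91 in IgG, and Slfn5 at 4847 in aOX40 and 2003 in IgG. All 3 of the highest members ranked in the uppermost part of the table in both groups, and Slfn5 did not.

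**Figure D2:**
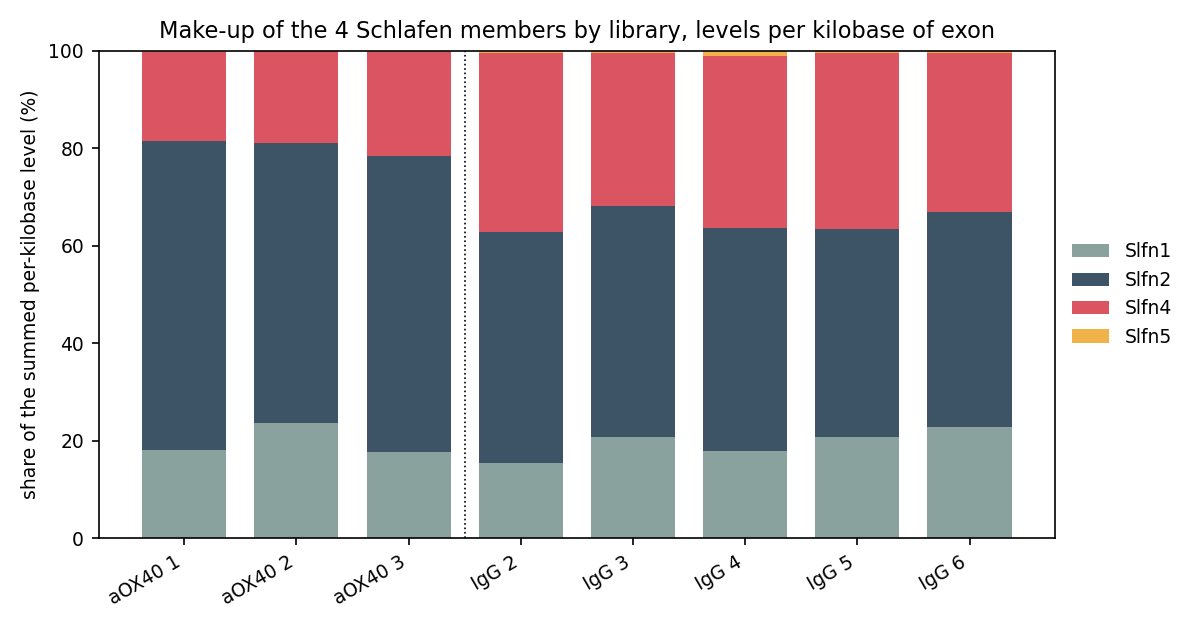
Share (%) of each member in the summed per-kilobase level of the 4 members, 1 bar per library, with the aOX40 libraries left of the dotted line. Slfn4 holds 18.3% to 21.4% in aOX40 and 31.4% to 36.7% in IgG, and Slfn5 is a thin layer at the top of each bar.

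Among the 5 relatives, 4 were tested and 0 passed in edgeR's test. The highest of them per length, Slfn8, stood at 9.59 ± 3.04 CPM per kilobase in aOX40 and 19.9 ± 7.45 CPM per kilobase in IgG (SD), with a mean above that of Slfn5, though their IgG ranges overlapped, and far below the other 3 members. In CPM, this long-form relative had 24.9, 45.4 and 47.4 CPM in aOX40 replicates 1, 2 and 3, against 61.1, 87.8, 126, 46.0 and 85.7 CPM in IgG replicates 2 to 6. IgG replicate 5 alone fell among the aOX40 libraries, and the log2 fold change was -1.05 (SE 0.35, adjusted p = 0.0958, edgeR). It passed in DESeq2 (adjusted p = 0.0318) and when the test was limited to genes with a mean of at least 10 CPM (adjusted p = 0.0481), and without IgG replicate 4 its value was -0.83 (adjusted p = 0.150, edgeR). Slfn9, another long form, ranged from 0.460 to 6.08 CPM in aOX40 and from 1.94 to 11.7 CPM in IgG (log2 fold change -1.22, SE 0.75, adjusted p = 0.345). Without IgG replicate 4 its log2 fold change was -0.83 (adjusted p = 0.553, edgeR). Slfn10-ps ranged from 15.97 to 26.01 CPM in aOX40 and from 9.19 to 25.2 CPM in IgG (log2 fold change 0.07, SE 0.35, adjusted p = 0.931). Slfn3, next to Slfn4, had 1.71 to 3.14 CPM in aOX40 and 0.521 to 2.36 CPM in IgG (log2 fold change 0.79, SE 0.60, adjusted p = 0.451). The fifth, the antisense transcript Slfn5os, did not pass the filter on low counts.

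The changes did not rise or fall steadily along the whole cluster, and whether position bears on them was not tested. Read from Slfn5 to Slfn3 along the chromosome, the log2 fold changes were -2.31, -1.22, -1.05, 0.07, -0.03, -0.44, -1.27 and 0.79, so that the called genes stood at 1 end and next to the other end. The nearest tested protein-coding gene on the Slfn5 side of the cluster was Rad51d, a DNA repair gene 60.7 kb away, and its log2 fold change of 0.71 did not pass (SE 0.58, edgeR adjusted p = 0.480).

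**Figure D3:**
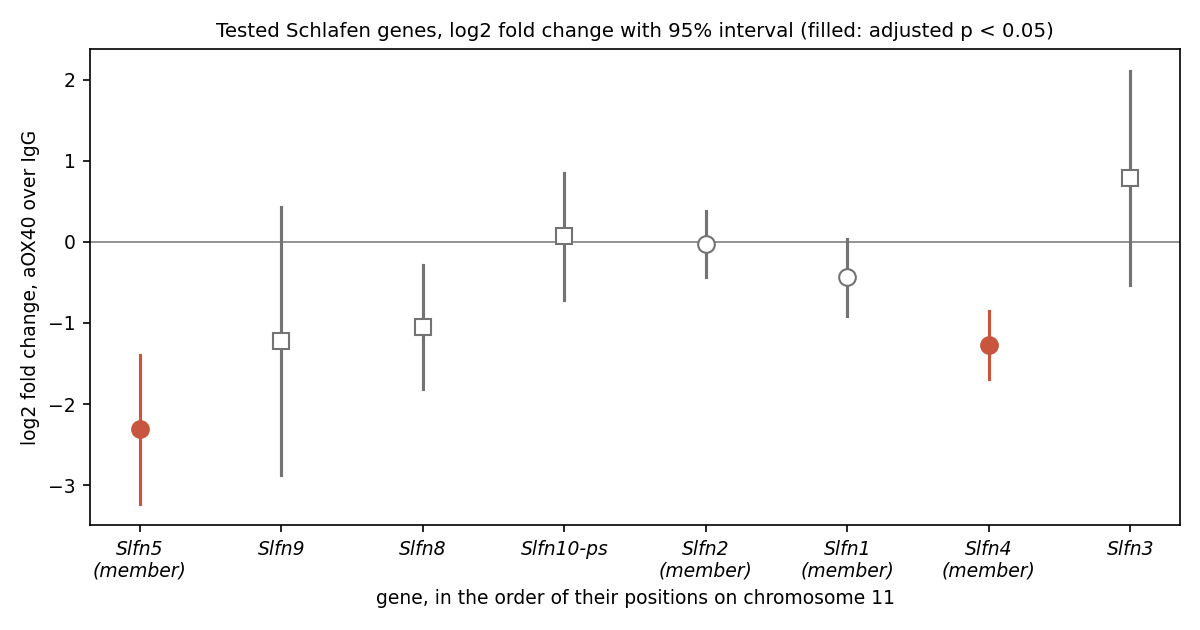
Log2 fold change of aOX40 over IgG with its 95% interval for the 8 tested Schlafen genes, in their order on chromosome 11, circles for the 4 members and squares for relatives, filled where the adjusted p was below 0.05. Slfn5 at -2.31 and Slfn4 at -1.27 are filled, with Slfn9, Slfn8, Slfn10-ps, Slfn2 and Slfn1 between them.

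Close relatives can share reads, and many deposited values carry fractions. Of the 50-base stretches of the annotated transcripts, 0.606% in Slfn1, 4.27% in Slfn2, 11.3% in Slfn4 and 11.1% in Slfn5 also occur in another gene. For Slfn4 the largest share was with Slfn3 (6.28% of its stretches), which was at most 3.14 CPM, and for Slfn5 with Slfn5os (7.38%). All of the shared stretches of Slfn1 and of Slfn2 also occur in Slfn4, so these 3 abundant members share some sequence. Whether that sharing bears on the ratio of Slfn4 to Slfn2 was not tested. Slfn8, Slfn9 and Slfn10-ps share 11.9% to 19.7% of their stretches with other genes, mostly with each other, so the split of reads among these 3 is less certain.

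Most other genes induced by type I interferon had log2 fold changes below 0. Of 42 listed genes, with no Schlafen gene among them, 39 were tested; 10 of these fell, 0 rose and 29 did not pass, with p-values adjusted over the whole table, in which 3.00% of genes were called lower and 2.64% higher. Their median log2 fold change was -0.86, against 0.05 over all genes tested, and 37 of the 39 values were below 0, as were 47.8% of the values of all genes tested. The 4 with the smallest p were Oas2, an oligoadenylate synthetase (-2.10), Parp14, an ADP-ribosyltransferase (-1.79), Xaf1 (-1.46) and the exonuclease gene Isg20 (-1.55). Isg20 averaged 363 ± 116 CPM in aOX40 and 1062 ± 254 CPM in IgG (SD over 3 and 5 libraries; SE of the log2 fold change 0.28, adjusted p = 0.0165, edgeR). The list and the Schlafen genes were both read with earlier results of these data known. Without IgG replicate 4 the list's median was -0.70, and 10 of 38 tested genes were lower. The count of lower genes was 0 without aOX40 replicate 2, 2 without aOX40 replicate 3, 5 without aOX40 replicate 1 and 6 without IgG replicate 6. It was 5 with the legacy form of the edgeR test and 22 with DESeq2.

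The list's mean log2 CPM was 5.97, 5.93 and 6.18 in aOX40 replicates 1, 2 and 3, against 6.74, 7.02, 7.76, 6.32 and 6.93 in IgG replicates 2 to 6. IgG replicate 4 was highest and IgG replicate 5 lowest among the IgG libraries, which was also the case for Slfn2, Slfn5, Slfn8 and Slfn9. Slfn4 likewise peaked in IgG replicate 4, but was lowest in IgG replicate 3. The other tested Schlafen genes did not follow the list's order. Among the IgG libraries Slfn1 was highest in replicate 6 (1123 CPM) and lowest in replicate 2 (624 CPM). Slfn10-ps was lowest in IgG replicate 4, at 9.19 CPM, against 25.2 CPM in IgG replicate 5. Slfn3 had 0.521 CPM in IgG replicate 4 and 2.25 CPM in IgG replicate 5.

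Genes that carry the interferon signal were read from a list of 16 receptors, kinases, factors and inhibitors. Of these 15 were tested, 1 fell and 0 rose, a share near the 5.65% called over all genes tested, and the median log2 fold change was -0.33, against 0.05 over all genes tested. The gene that fell was Socs1, a feedback inhibitor (-2.04). Irf1, an interferon-induced factor, had 661 ± 222 CPM in aOX40 and 1512 ± 525 CPM in IgG (SD over 3 and 5 libraries), and its log2 fold change of -1.19 missed the threshold (SE 0.31, adjusted p = 0.0512, edgeR). Tyk2, the kinase at the type I receptor, had a value of 2.00 (adjusted p = 0.0580) and Stat2 of -0.83 (adjusted p = 0.0856), and neither passed. Scaled by total counts alone, 2 genes of this list rose and 1 fell; with upper quartile scaling 2 fell, with DESeq2 3, and without aOX40 replicate 2 none passed.

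**Figure D4:**
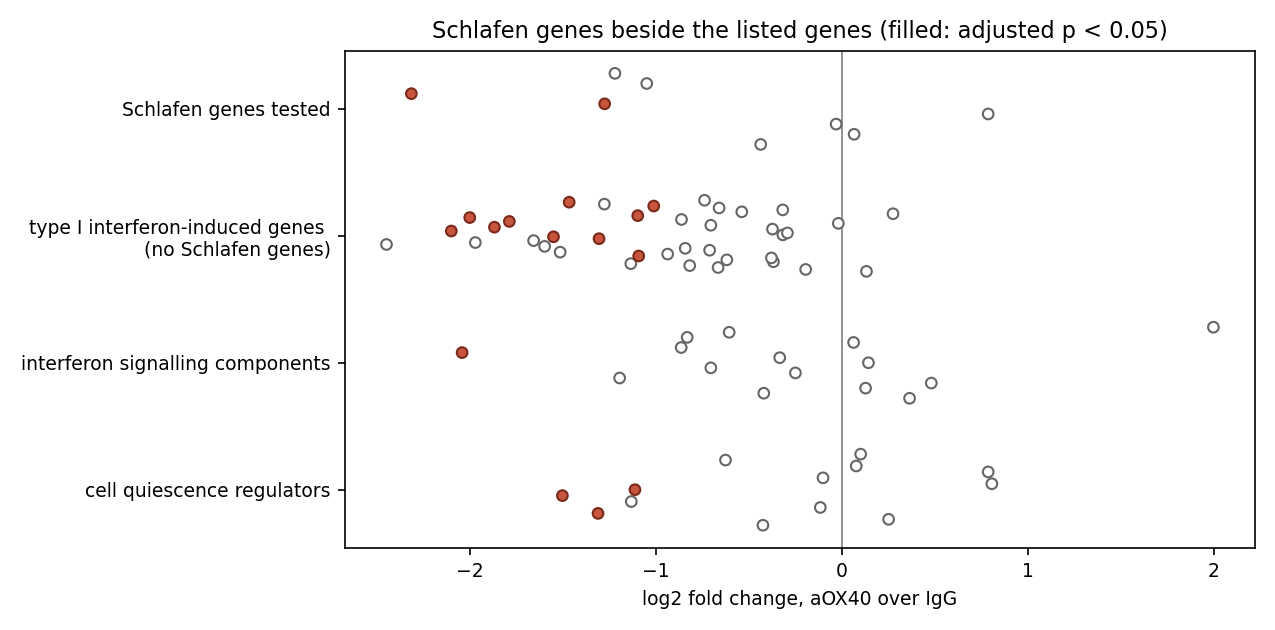
Log2 fold change of aOX40 over IgG for the 8 tested Schlafen genes and for each tested gene of 3 lists, 1 point per gene, filled where the adjusted p was below 0.05. Mx2, listed at 0 in all 3 aOX40 libraries, is not drawn. In the type I interferon-induced row 10 of 39 genes are called, all to the left of 0, and Slfn5 at -2.31 lies near the left end.

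Each member was also set beside the genes whose pattern over the 8 libraries was most like its own, measured as the root mean square difference of log2 CPM after each gene was centred on its mean, among 4553 genes. For Slfn4 these were Picalm, a clathrin adaptor (0.10), Gla, a lysosomal galactosidase (0.13), and the Fc receptor gene Fcgr4 (0.13). For Slfn5 they were Socs1 (0.24), the helicase gene Helz2 (0.30) and Rsad2, the gene of viperin (0.31). Serinc3 (0.05), Rab11b (0.08) and Dazap2 (0.10) were nearest to Slfn2, and Clk2 (0.13), Ensa (0.18) and Rbm3-ps (0.18) to Slfn1. Between members the distance was 0.30 for Slfn1 and Slfn2, 0.49 for Slfn1 and Slfn4, 0.58 for Slfn4 and Slfn5, 0.61 for Slfn2 and Slfn4, 0.98 for Slfn1 and Slfn5 and 1.11 for Slfn2 and Slfn5. Slfn1 was thus the member nearest to Slfn2 and to Slfn4, and Slfn4 the nearest to Slfn5, but many other genes were nearer. Set among the 4553 genes, Slfn2 would rank 222 by distance from Slfn1 and Slfn4 1712 from Slfn1. Slfn5 would rank 1267 by distance from Slfn4. The likeness measure holds the group difference, so genes near Slfn4 or Slfn5 are lower in aOX40 by construction, and Rsad2 is also in the type I interferon-induced list.

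Markers of other cell types were also summed per library. Macrophage and monocyte markers, 13 of 15 with a row in the table, summed to 1087 to 1529 CPM in aOX40 and 1406 to 2039 CPM in IgG (exact permutation p = 0.0714, 0.190 adjusted over the 8 marker lists), with Mertk and Trem2 below 1 CPM in all libraries. Within that sum Cd68 averaged 639 CPM in aOX40 and 1272 CPM in IgG, while Csf1r averaged 51.2 CPM in aOX40 and 17.5 CPM in IgG. Dendritic cell markers, 6 of 9, summed to 11.3 to 20.6 CPM in aOX40 and 22.5 to 41.0 CPM in IgG (exact permutation p = 0.0357, adjusted 0.143), with Flt3, Zbtb46 and Batf3 below 1 CPM. Itgax alone made up most of that sum, at a mean of 15.4 CPM in aOX40 and 30.9 CPM in IgG, while Flt3, Zbtb46 and Batf3 had slightly higher means in aOX40. Fibroblast and endothelial markers, 5 of 10, summed to 4.45 to 8.86 CPM in aOX40 and 8.92 to 59.9 CPM in IgG (exact permutation p = 0.0357, adjusted 0.143), with Lum below 1 CPM. The part of these 3 cell types in the lower Slfn4 and Slfn5 levels was not tested. T cell markers, 7 of 14, summed to 5.78 to 7.74 CPM in aOX40 and 1.75 to 8.21 CPM in IgG, with Cd3g, Cd4 and Cd8a below 1 CPM in every library. B cell markers (2 of 9) summed to at most 0.861 CPM in aOX40 and 0.425 CPM in IgG, NK cell markers (1 of 8) to at most 0.323 CPM in aOX40 and 0 in IgG, and melanoma markers (8 of 8) to 4.59 to 9.07 CPM in aOX40 and 5.77 to 15.9 CPM in IgG.

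**Figure D5:**
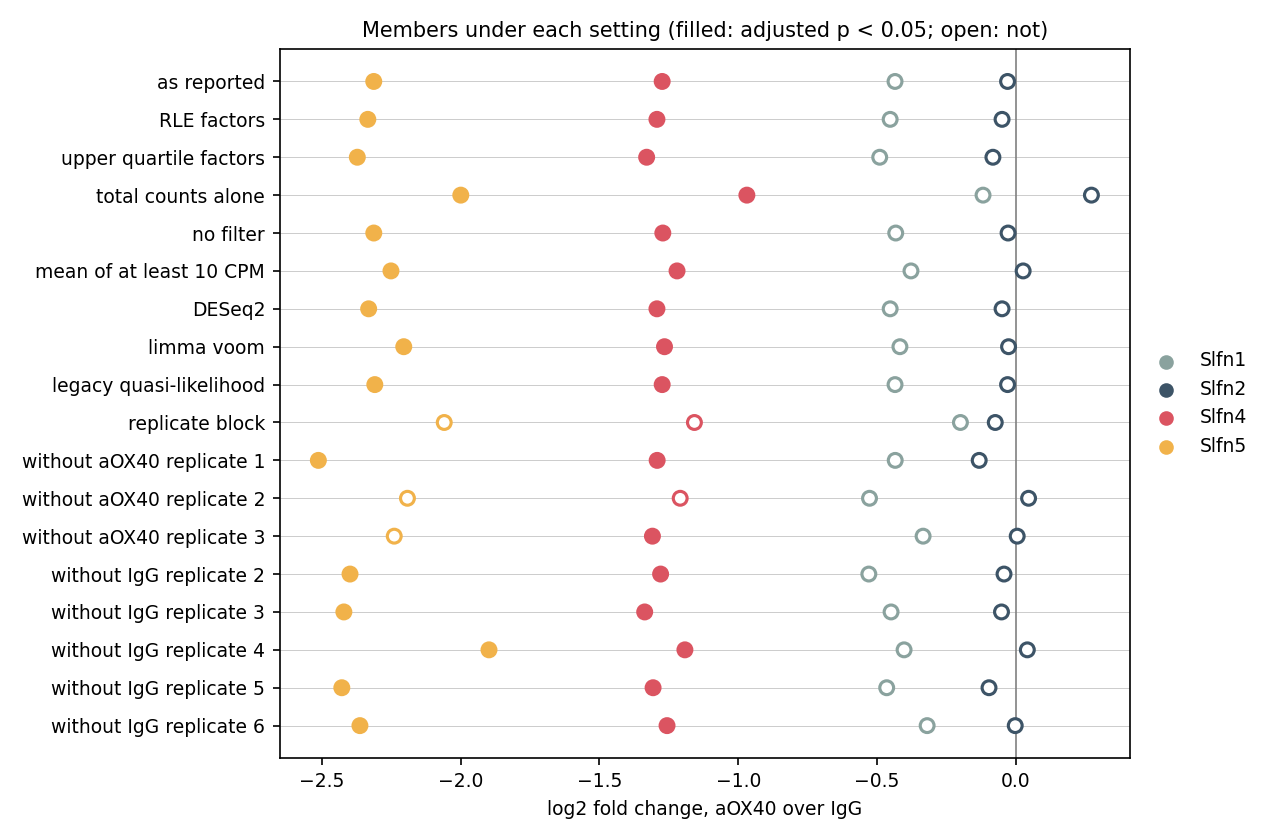
Log2 fold change of aOX40 over IgG for the 4 members as reported (top row) and in 17 other settings, filled where the adjusted p was below 0.05. Slfn4 and Slfn5 stay left of 0 throughout and are open with the replicate block and without aOX40 replicate 2, Slfn5 also without aOX40 replicate 3, and Slfn2 crosses 0.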

How the data were processed

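The authors deposited estimated counts per gene symbol for 8 libraries, not scaled between libraries. Of the deposited values, 63.4% were whole within 0.01. Per the submitters' processing notes, STAR 2.6.0, Subread and featureCounts 1.5.1 were used with the build mm10. No source used here gives the annotation, the strand setting or the origin of the fractions. No pair of libraries held identical values. The counts were rounded, filtered with filterByExpr by group, scaled with TMM factors and tested for group by the quasi-likelihood method of edgeR 4.0.16 (legacy = FALSE, no other term) in R 4.3.3, adjusting over 13278 genes at 0.05. SE values come from the F statistic. Depth and marker sums were compared with exact two-sided permutation tests (56 arrangements). Gene lengths are the union of GENCODE M21 exons; all 4 members and 8 of the 9 Schlafen symbols matched a RefSeq promoter. The fit was tested on simulated data. The members and gene lists were chosen with earlier results of these data known. Genes named were the Schlafen symbols, the 3 nearest patterns per member (mean of at least 10 CPM) and the 4 smallest p of each list; 1 flanking gene was added by position, after its value could be seen. Mx2, Mmp8, G0s2, Cd68, Csf1r and Itgax were named after their values were seen, as were the markers named for being below 1 CPM. Some genes that fall under these choices are not reported here. As alternatives, the scaling factors and the filter were changed, DESeq2 1.42.0 and voom (limma 3.58.1) replaced edgeR, a replicate block was added and each library was left out; the legacy form of the edgeR test was added after seeing the data.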

Additional observations from a re-analysis of the deposited data

Results flagged for a closer look

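Slfn5 in IgG replicate 4, at 179 CPM, stood far from the other 4 IgG libraries, which held 60.3 to 78.2 CPM; the gap to its nearest neighbour was 0.849 of the group's range, above Dixon's 95% value of 0.71 for 5 samples. About 1 in 20 groups would be picked out in this way by chance, and 9 sets of IgG values were looked at, the 8 tested Schlafen genes and the share of counts of the 4 members. In the same library Slfn8 was at 126 CPM and Slfn9 at 11.7 CPM, the highest of the 8 libraries for each, and Slfn10-ps at 9.19 CPM, the lowest. Without this library the log2 fold change of Slfn5 was -1.90 (adjusted p = 0.0167, edgeR) against -2.31 with it.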

How the results depend on the processing

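Slfn4 and Slfn5 had a log2 fold change below 0 in all 17 alternatives, where the groups' lack of overlap fixes the side, and passed in 15 and 14 of them; Slfn1 was also below 0 in all 17 and passed in 0. With 1 library left out, the log2 fold change ran from -1.34 to -1.19 for Slfn4 and from -2.51 to -1.90 for Slfn5, with 0 to 2 members called: 0 without aOX40 replicate 2 and 1 without aOX40 replicate 3. For Slfn1 it ran from -0.53 to -0.32. Slfn2 ran from -0.13 to 0.046 and so changed side, at 0.046 without aOX40 replicate 2, 0.00463 without aOX40 replicate 3 and 0.04 without IgG replicate 4; it was also above 0 with total counts alone (0.27) and among genes with a mean of at least 10 CPM (0.026), and it passed in 0 of the 17. The cause was not tested. Over all genes, 750 were called; left-out libraries gave 0 to 589. The 0 was without aOX40 replicate 2 (2230 genes in edgeR had an unadjusted p below 0.05); there were 59 without aOX40 replicate 3, 497 without IgG replicate 3 and 475 without IgG replicate 6. No filter gave 452, DESeq2 1457 and the legacy form of the edgeR test 320, of which 34.1% were higher. Total counts alone gave 874 higher and 246 lower genes, against 351 and 399 in the analysis reported, and moved the aOX40 levels by more than their SD, to 730 CPM for Slfn1, 1984 CPM for Slfn2 and 1512 CPM for Slfn4. With the replicate number as a block, where only the numbers 2 and 3 occur in both groups, 0 genes and 0 members passed in edgeR, while 2594 genes had an unadjusted p below 0.05, with -1.16 for Slfn4 and -2.06 for Slfn5 (adjusted p = 0.238 each). Deviations of the libraries with the same number correlated at 0.02 (number 2) and 0.05 (number 3). Libraries of unlike number were not compared in this way, so these values cannot decide whether the numbers pair the libraries.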

Other observations

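Because Schlafen genes are named for quiescence, 13 regulators of cell quiescence were also read. All 13 were tested, 3 fell and 0 rose with p-values adjusted over the whole table, and the median log2 fold change was -0.12, against 0.05 over all genes tested, of which 5.65% were called. Cdkn1a, the gene of the cell cycle inhibitor p21, averaged 1189 ± 265 CPM in aOX40 and 2948 ± 120 CPM in IgG (SD over 3 and 5 libraries) and fell by 1.31 on the log2 scale (SE 0.20, edgeR adjusted p = 0.00996). The forkhead gene Foxo3 fell to 8.94 ± 3.97 CPM in aOX40, against 25.1 ± 4.31 CPM in IgG (edgeR adjusted p = 0.0324), and Foxp1 to 33.1 ± 8.86 CPM in aOX40, against 71.5 ± 17.0 CPM in IgG (edgeR adjusted p = 0.0409). With 1 library left out, 0 to 2 genes of this list were lower: 0 without aOX40 replicate 2, and 1 when aOX40 replicate 3, IgG replicate 2 or IgG replicate 4 was missing; the legacy form of the edgeR test gave 1, and total counts alone gave 1 higher and 2 lower.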
